A study of Mus musculus with 12 samples.

Results

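Transcripts of 10 genes of the epithelial tight junction were followed in scraped mouse colon mucosa: the claudins Cldn1, Cldn2, Cldn3, Cldn4, Cldn7, Cldn8, Cldn15 and Cldn23, occludin (Ocln) and the scaffold gene Tjp1, which encodes ZO-1. A probe was taken as belonging to one of them when the transcript identifier printed on the array carries that symbol in the RefSeq table. All 10 genes were found, with 13 probes among the 41174 on the array. Of these genes, 9 passed the filter on dim probes and were tested among 23747 genes. Both Cldn1 probes were not well above background on any of the 12 arrays, so Cldn1 has no fold change here.

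The study used bone marrow chimeras, mice whose blood-forming cells come from a donor. All recipients were wild-type C57BL/6 mice, so the gut epithelium in every group carried intact Muc1, the gene of a cell-surface mucin, and the knockout concerned the donor marrow alone. The 4 groups held 3 mice each: KO-marrow mice given AOM+DSS, WT-marrow mice given AOM+DSS, KO-marrow untreated mice and WT-marrow untreated mice. AOM is azoxymethane, a colon carcinogen, injected once into the abdomen at 12.5 mg/kg. DSS is dextran sodium sulfate, which injures the colon epithelium and causes colitis. Starting 5 days after the injection, these mice drank 2% DSS for 4 days and then plain water for 14 days, went through that cycle again, drank 2.5% DSS for 5 days, and were killed 1 day later. Each array held the RNA of 1 mouse, so the replicates are separate animals. The labels give neither the ages nor how many host blood cells remained in the chimeras. The time point follows directly on a DSS course.

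Tight junctions close the space between neighbouring epithelial cells and set which ions and molecules may pass. Claudins are membrane proteins that form their strands. Cldn2 and Cldn15 form channels for small cations, whereas Cldn1, Cldn3, Cldn4 and Cldn8 are usually classed as sealing claudins. Occludin is a further strand protein, and ZO-1 ties the strands to the actin cytoskeleton. In the inflamed bowel, loss of sealing junction proteins and gain of pore-forming ones is a much-studied form of barrier failure.

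Levels below are log2 signals relative to the 75th percentile of signals on the same array, so 0 is that percentile and 1 unit is a doubling. They can be compared between mice for a probe, not between probes. Changes are differences of such levels, AOM+DSS minus untreated or KO marrow minus WT marrow, with standard errors from limma fitted to all 12 arrays. A gene was called at a Benjamini-Hochberg adjusted p under 0.05 over all genes tested.

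The 12 arrays lay on 3 slides that were not balanced over the groups. Slide 1 held the 3 WT-marrow untreated mice and KO-marrow untreated mouse 1, slide 2 held KO-marrow untreated mice 2 and 3 and mouse 3 of each AOM+DSS group, and slide 3 held mice 1 and 2 of each AOM+DSS group. Slide 3, which held AOM+DSS mice alone, was scanned on another day than slides 1 and 2. Its arrays had 496 to 781 spots flagged as non-uniform, against 4 to 52 on the other slides. Mouse 3 of the WT-marrow AOM+DSS group gave the dimmest array, with a 75th percentile of 153.2 intensity units against 332 to 767.8 on the others. On that array 64.1% of probes were well above background, and the lowest share, 58.05%, was that of KO-marrow untreated mouse 2. General epithelial markers, Epcam, Krt8, Vil1 and Cdh1 among them, were well above background on every array for all 10 genes of the list. With AOM+DSS, averaged over both marrows, 0 of the 10 were called (median log2 change -0.09). When slide was added to the fit as a block, 1 of the 10 was called lower and the median was 0.23. After normexp background correction the median was -0.37. Muc1 itself was well above background on all 12 arrays in its brighter probe, at -2.41 to -0.99 in KO-marrow and -3.53 to -1.47 in WT-marrow AOM+DSS mice, and at -3.80 to -2.12 in KO-marrow and -2.25 to -1.50 in WT-marrow untreated mice. Since the recipients' own cells carry the gene, its level is no check of the donor.

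Cldn4 and Cldn3 are adjacent protein-coding genes on chromosome 5 in the RefSeq order, and their measured changes with AOM+DSS had opposite signs. Ocln, on chromosome 13, gave the one call among the 10 genes outside the claudins. For that reason the 250 bases upstream of their annotated starts are shown, as RefSeq gives them on GRCm38.p6, 5′ to 3′ along the gene's strand. They lie at chr5:134946935-134947184 on the minus strand for Cldn4, at chr5:134985964-134986213 on the plus strand for Cldn3, and at chr13:100552719-100552968 on the minus strand for the more upstream start of Ocln. Capitals mark matches to the E-box core CAGGTG (or its reverse complement, CACCTG) and to the AP-1 motif TGANTCA.
Cldn4: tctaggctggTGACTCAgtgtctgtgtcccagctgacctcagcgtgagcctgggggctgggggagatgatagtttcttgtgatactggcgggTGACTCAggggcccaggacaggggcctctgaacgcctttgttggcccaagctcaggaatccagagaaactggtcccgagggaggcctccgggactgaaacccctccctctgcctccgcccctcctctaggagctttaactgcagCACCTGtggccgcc
Cldn3: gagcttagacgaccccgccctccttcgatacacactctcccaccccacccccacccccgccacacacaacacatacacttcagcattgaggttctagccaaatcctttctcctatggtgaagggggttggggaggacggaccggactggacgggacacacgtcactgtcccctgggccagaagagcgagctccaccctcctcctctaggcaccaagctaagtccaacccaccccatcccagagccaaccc
Ocln: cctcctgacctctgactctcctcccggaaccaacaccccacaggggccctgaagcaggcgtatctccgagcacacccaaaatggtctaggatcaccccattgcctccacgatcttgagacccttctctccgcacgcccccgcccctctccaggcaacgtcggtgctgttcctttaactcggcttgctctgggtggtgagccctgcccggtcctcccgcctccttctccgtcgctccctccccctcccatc

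The Cldn4 window held 2 matches to TGANTCA, a motif present in 6.75% of the 32851 promoter windows of this length, and 1 match to the E-box core, present in 17.2%. The windows shown for Cldn3 and Ocln held neither. A STAT-type motif, TTCNNNGAA, found in 7.02% of all windows, and a CDX-type motif, TTTATG, found in 10.8%, were absent from all 3 windows. The GC box GGGCGG, found in 32.7% of windows, was present once in each of the 3, and a loose NF-kB-type motif, found in 45.8%, was present once in the Ocln window and in neither claudin window. The window of the other annotated Ocln start, which overlaps the one shown, held 2 matches to the E-box core and none to TGANTCA. Over all 10 promoter windows of the genes described here, 2 held TGANTCA, those of Cldn4 and Cldn15, and 3 held the E-box core. The measured averaged change of Cldn15 with AOM+DSS was below 0 (-0.82, not called). All motifs were searched on both strands, and matches to different motifs may overlap. A match describes the letters and is not evidence of binding. Promoter entries were matched for 8 of the 10 genes, and Cldn8 and Cldn23 are named only.

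**Figure D1:**
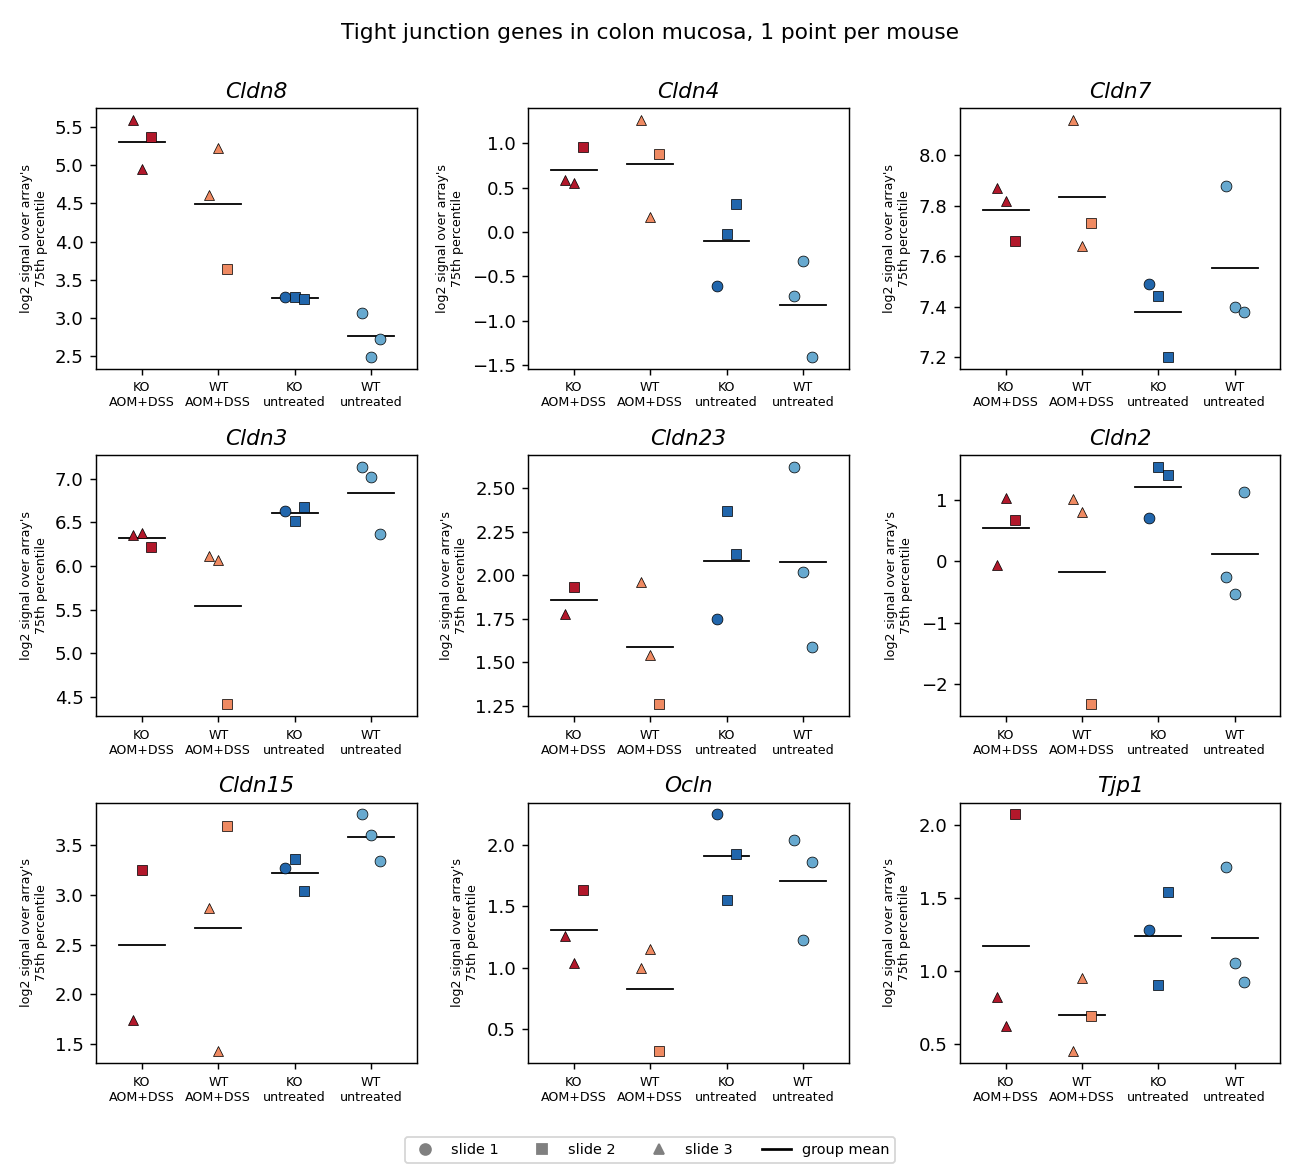
Level of each of the 9 measured genes in every mouse, as log2 signal over the array's 75th percentile, with marker shape for the slide and a line at the group mean. For Cldn8 all 6 AOM+DSS mice (3.64 to 5.59) sit above all 6 untreated mice (2.49 to 3.27), and for Cldn2 and Cldn3 mouse 3 of the WT-marrow AOM+DSS group sits far below the rest.

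With AOM+DSS, the sealing claudins Cldn8 and Cldn4 rose and Ocln fell when the effect was averaged over both marrow types. Cldn8 was 3.7-fold higher, Cldn4 was 2.3-fold higher and Ocln was 1.67-fold lower, with 6 mice on each side. The pore-forming claudins Cldn2 and Cldn15, and also Cldn3, Cldn7, Cldn23 and Tjp1, were not past the threshold. So 2 of the 9 measured genes were called higher and 1 lower, where 7.55% of all genes tested were called higher and 13.5% lower (21% in either direction). The median change of the 9 genes was -0.36, beside -0.19 for all 23747 genes. None of the 3 calls was retained when slide was added as a block, a fit that moved the median of all genes to 0.46: the adjusted p was then 0.0635 for Cldn8, 0.242 for Cldn4 and 0.445 for Ocln.

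Cldn8 is a sealing claudin that limits paracellular cation passage, and in mouse kidney it brings Cldn4 into the junction. Its log2 levels were 5.59, 4.95 and 5.37 in KO-marrow AOM+DSS mice and 4.61, 5.23 and 3.64 in WT-marrow AOM+DSS mice, against 3.27, 3.27 and 3.25 in KO-marrow untreated mice and 3.07, 2.49 and 2.72 in WT-marrow untreated mice. Every AOM+DSS mouse lay above every untreated mouse, as for 4.28% of all genes, while 3.9% were separated the other way (8.18% in either direction). Cldn8 was the 1 of the 9 genes so separated. The change was 1.89 ± 0.24 (SE, n = 6 against 6, 95% interval 1.37 to 2.41, limma adjusted p = 0.00033). By its moderated statistic it held rank 129 among the 23747 genes, counted from the most raised.

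Each marrow type was then taken alone. In KO-marrow mice 1 of the 9 genes was called, against 3.15% of all genes (1.85% higher and 1.31% lower). In WT-marrow mice 3 of the 9 were called, against 13.8% of all genes (3.61% higher and 10.2% lower). Groups did not overlap for 4 of the 9 genes in KO-marrow mice, where this held for 23.6% of all genes, and for 4 of the 9 in WT-marrow mice, where it held for 33.1%. The 4 were Cldn8, Cldn4, Cldn7 (all higher) and Cldn3 (lower) in KO-marrow mice, and Cldn8, Cldn4 (higher), Cldn3 and Ocln (lower) in WT-marrow mice. Higher and non-overlapping groups were seen for 11.2% of all genes in each marrow type.

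Cldn8 was called in both. In KO-marrow mice it was 2.04 ± 0.34 (SE, n = 3 against 3, 4.12-fold, limma adjusted p = 0.00577). In WT-marrow mice it was 1.73 ± 0.34 (SE, n = 3 against 3, 3.32-fold, limma adjusted p = 0.0119). With slide as a block the change was 1.65 in KO-marrow mice (adjusted p = 0.0359) and 1.35 in WT-marrow mice (adjusted p = 0.273), and the WT-marrow value then rests on the untreated KO-marrow mouse of slide 1 as its link between slides. Within slide 2, the lone KO-marrow AOM+DSS mouse exceeded the mean of the 2 KO-marrow untreated mice by 2.11. The same slide 2 difference was 0.81 for Cldn4, -0.38 for Cldn3, -0.80 for Cldn2, -0.11 for Ocln, 0.05 for Cldn15 and 0.85 for Tjp1. For Cldn15 and Tjp1 its sign was opposite to that of the averaged change given further on. Among the 9 genes, Cldn8 in KO-marrow mice was the one change called in every one of its 21 alternative settings.

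Cldn8 was also the one gene of the 10 in the authors' deposited table of centred log2 group means, which lists 2506 probes. That table gave it 1.86 in KO-marrow and 1.05 in WT-marrow AOM+DSS mice, against -0.197 in KO-marrow and -0.705 in WT-marrow untreated mice. The labels do not say how its probes were chosen.

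Cldn4, a sealing claudin, had log2 levels of 0.59, 0.55 and 0.96 in KO-marrow AOM+DSS mice and 1.26, 0.17 and 0.88 in WT-marrow AOM+DSS mice, against -0.61, -0.02 and 0.31 in KO-marrow untreated mice and -0.72, -0.33 and -1.41 in WT-marrow untreated mice. The groups did not overlap within either marrow type, and across marrow types the KO-marrow untreated mouse at 0.31 exceeded the WT-marrow AOM+DSS mouse at 0.17. The change averaged over marrows was 1.20 ± 0.26 (SE, n = 6 against 6, 95% interval 0.64 to 1.76, limma adjusted p = 0.00889). It was 1.59 ± 0.37 in WT-marrow mice (SE, n = 3 against 3, 3.01-fold, limma adjusted p = 0.0212) and 0.81 ± 0.37 in KO-marrow mice (SE, n = 3 against 3, limma adjusted p = 0.335). In WT-marrow mice 3.61% of all genes were called higher. With slide as a block the averaged change was 0.88 and the WT-marrow change 1.01 (adjusted p = 0.423).

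Cldn3, a sealing claudin abundant along the colon and the chromosomal neighbour of Cldn4, had log2 levels of 6.35, 6.38 and 6.22 in KO-marrow AOM+DSS mice and 6.12, 6.07 and 4.42 in WT-marrow AOM+DSS mice, against 6.63, 6.51 and 6.68 in KO-marrow untreated mice and 7.13, 7.02 and 6.37 in WT-marrow untreated mice. Within each marrow type, every AOM+DSS mouse lay below every untreated mouse, and across marrow types the WT-marrow untreated mouse at 6.37 fell among the KO-marrow AOM+DSS values. Lower and non-overlapping groups were seen for 12.5% of all genes in KO-marrow mice and for 22% in WT-marrow mice.

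In WT-marrow mice Cldn3 fell by 1.30 on the log2 scale (SE 0.38, n = 3 against 3, 2.47-fold, limma adjusted p = 0.0415), where 10.2% of all genes were called lower. Without the dim array of mouse 3 the change was -0.75, still called (adjusted p = 0.0291), and with slide as a block it was -1.87 and not called (adjusted p = 0.164). In KO-marrow mice the Cldn3 change was -0.29 ± 0.38 (SE, n = 3 against 3, limma adjusted p = 0.796). Averaged over marrows it was -0.80 ± 0.27 (SE, n = 6 against 6, limma adjusted p = 0.0525).

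Cldn7, which lies partly on the basolateral membrane of intestinal cells as well as at the junction, spanned 7.66 to 7.87 in KO-marrow and 7.64 to 8.14 in WT-marrow AOM+DSS mice, against 7.20 to 7.49 in KO-marrow and 7.38 to 7.88 in WT-marrow untreated mice. Its averaged change was 0.35 ± 0.16 (SE, n = 6 against 6, 95% interval -0.01 to 0.70, limma adjusted p = 0.139). Cldn23, a claudin of differentiated colonocytes, spanned 1.78 to 1.93 in 2 KO-marrow mice and 1.26 to 1.96 in the WT-marrow mice given AOM+DSS, against 1.75 to 2.37 in KO-marrow and 1.59 to 2.62 in WT-marrow untreated mice. Its averaged change was -0.36 ± 0.23 (SE, limma adjusted p = 0.263). For Cldn23 and Cldn15 the spot of KO-marrow AOM+DSS mouse 1 carried the scanner's non-uniformity flag and was left out, which leaves 5 AOM+DSS mice against 6 untreated ones.

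Neither pore-forming claudin was called. Cldn2, the cation and water pore of leaky epithelia, had log2 levels of -0.06, 1.03 and 0.67 in KO-marrow AOM+DSS mice and 1.02, 0.81 and -2.33 in WT-marrow AOM+DSS mice, against 0.71, 1.54 and 1.41 in KO-marrow untreated mice and -0.26, -0.53 and 1.14 in WT-marrow untreated mice. The value of -2.33 came from the dim array, and it was the lowest of the 12. The averaged change was -0.48 ± 0.52 (SE, n = 6 against 6, 95% interval -1.60 to 0.65, limma adjusted p = 0.524), an interval that spans both directions. Without the dim array it was 0.06 (adjusted p = 0.891).

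Cldn15, the other cation channel, spanned 1.74 to 3.25 in 2 KO-marrow and 1.43 to 3.69 in 3 WT-marrow AOM+DSS mice, against 3.04 to 3.36 in KO-marrow and 3.34 to 3.81 in WT-marrow untreated mice. The lowest value in each AOM+DSS group came from slide 3, at 1.74 in KO-marrow mouse 2 and 1.43 in WT-marrow mouse 2, and the highest from slide 2. Its averaged change was -0.82 ± 0.38 (SE, limma adjusted p = 0.131), and with slide as a block it was 0.11 (adjusted p = 0.889). Without the dim array the averaged change was -1.08 and called (adjusted p = 0.0204).

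Occludin had log2 levels of 1.26, 1.04 and 1.63 in KO-marrow AOM+DSS mice and 1.00, 1.15 and 0.32 in WT-marrow AOM+DSS mice, against 2.25, 1.55 and 1.93 in KO-marrow untreated mice and 2.04, 1.23 and 1.86 in WT-marrow untreated mice. The groups overlapped, since KO-marrow AOM+DSS mice at 1.26 and 1.63 exceeded the WT-marrow untreated mouse at 1.23. Averaged over marrows, Ocln fell by 0.74 on the log2 scale (SE 0.22, n = 6 against 6, limma adjusted p = 0.0321). The change was -0.60 ± 0.31 in KO-marrow mice (SE, n = 3 against 3, limma adjusted p = 0.414) and -0.89 ± 0.31 in WT-marrow mice (SE, n = 3 against 3, limma adjusted p = 0.0696).

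The Ocln call was the least stable of the averaged ones, called in 9 of 21 alternative settings, with changes from -0.86 to -0.29. Its second, dimmer probe gave -0.29 ± 0.53 (SE, n = 6 against 6, limma adjusted p = 0.718). That probe was well above background on 11 of 12 arrays. It read -2.40, -3.02 and -4.23 in KO-marrow AOM+DSS mice and -2.78, -2.85 and -5.85 in WT-marrow AOM+DSS mice, the last from the dim array, against -3.08, -2.85 and -3.24 in KO-marrow and -3.42, -3.91 and -2.90 in WT-marrow untreated mice. Both probes gave a change below 0, and for the dimmer one the interval spans both directions. The neighbour of Ocln on chromosome 13, Marveld2, encodes tricellulin, a protein of the contacts where cells meet at corners. It was named after its values were seen, and its change was 0.29 ± 0.19 (SE, n = 6 against 6, limma adjusted p = 0.284).

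Tjp1 spanned 0.62 to 2.07 in KO-marrow and 0.45 to 0.95 in WT-marrow AOM+DSS mice, against 0.90 to 1.54 in KO-marrow and 0.92 to 1.71 in WT-marrow untreated mice. The highest value, 2.07, was that of KO-marrow AOM+DSS mouse 3 on slide 2. The averaged change was -0.30 ± 0.26 (SE, n = 6 against 6, limma adjusted p = 0.417), and the second probe gave -0.66 ± 0.35 (SE, limma adjusted p = 0.185). With slide as a block the averaged change was 0.18 (adjusted p = 0.812).

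**Figure D2:**
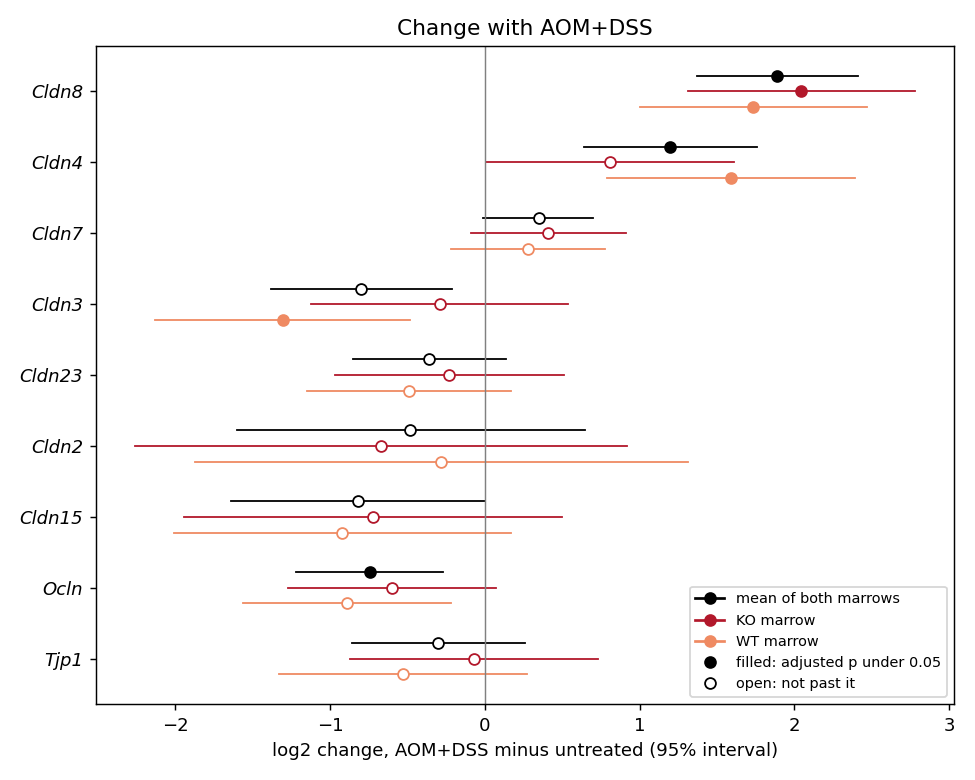
Log2 change with AOM+DSS for each gene, with its 95% interval, averaged over both marrow types and in KO-marrow and WT-marrow mice; filled points passed the adjusted p threshold of 0.05. Cldn8 is filled in all 3 comparisons, Cldn4 in the average and in WT-marrow mice, Cldn3 in WT-marrow mice and Ocln in the average.

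**Figure D3:**
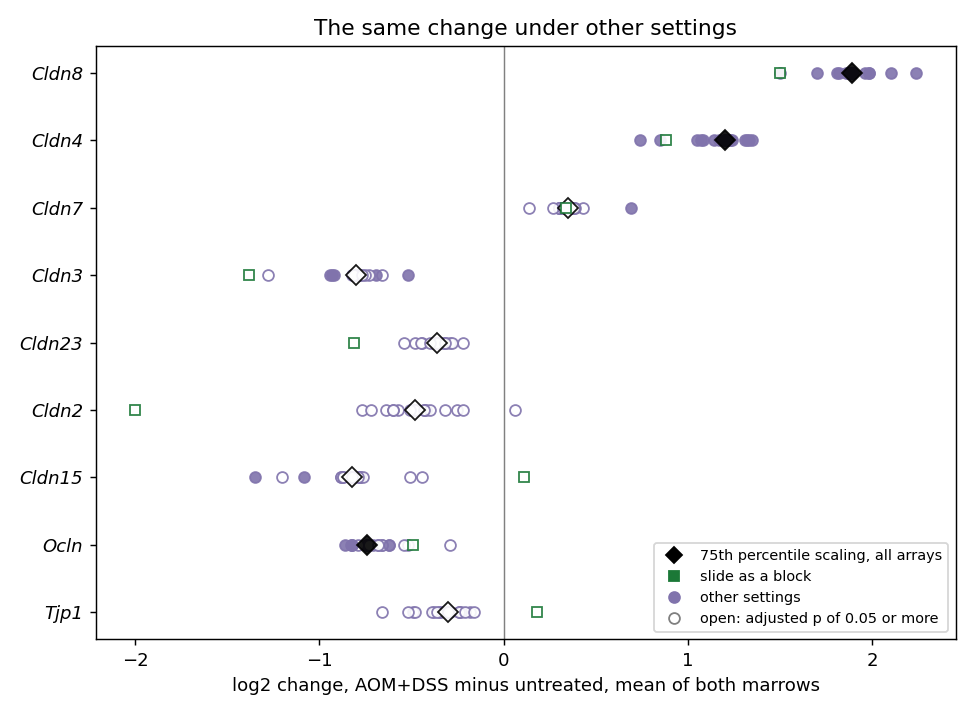
The averaged log2 change of each gene under the analysis reported (diamond), with slide as a block (square) and under the other settings (circles); open symbols were not past the threshold. The Cldn8 values run from 1.50 to 2.24 and the Cldn4 values from 0.74 to 1.35, whereas Cldn2, Cldn15 and Tjp1 cross 0.

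These are bulk samples of scraped mucosa, in which fewer cells of a type and less RNA per cell cannot be told apart. RNA of several cell type marker lists moved with AOM+DSS, averaged over both marrows, in a comparison where 7.55% of all genes were called higher and 13.5% lower. Of 8 markers of surface colonocytes, the absorptive cells at the top of the crypt, 6 fell, among them the chloride exchanger Slc26a3 (-2.71), the sodium exchanger Slc9a3 (-2.38), the hormone Guca2a (-2.08) and the carbonic anhydrase Car4 (-1.73). Adding slide as a block left 3 of the 8 called, among which Guca2a was not (-1.38, adjusted p = 0.226), and after normexp Slc9a3 stood at -0.08 (adjusted p = 0.895). Their summed signal, in multiples of the array's 75th percentile, was 483 to 942 in KO-marrow and 466 to 980 in WT-marrow AOM+DSS mice, against 1170 to 1670 in KO-marrow and 1110 to 2010 in WT-marrow untreated mice. Of 6 goblet cell markers tested, 0 were called.

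Marker RNA of some cell types other than epithelium was higher as well. All 8 neutrophil markers, 7 of 8 monocyte and macrophage markers and 6 of 7 fibroblast markers rose. Under the slide block, 8 of 8 neutrophil, 4 of 8 monocyte and macrophage and 1 of 7 fibroblast markers were called. Without that block, 2 of 7 B and plasma cell markers were called higher and 1 of 6 endothelium markers lower. Of 7 T cell and 6 smooth muscle markers, 0 were called. With the block, 1 of the 6 smooth muscle markers was called lower, and 0 B and plasma cell, endothelium or T cell markers were called. The neutrophil sum was 11 to 53.8 in KO-marrow and 48.9 to 122 in WT-marrow AOM+DSS mice, against 0.148 to 0.247 in KO-marrow and 0.144 to 0.569 in WT-marrow untreated mice. In each untreated group, 4 of the 8 neutrophil markers were not well above background in any mouse. In every mouse of the group, 1 was well above background with KO marrow and 2 with WT marrow. The other neutrophil markers passed the filter on dim probes only through AOM+DSS mice, so their calls are no independent support. Of 8 squamous epithelium markers tested, Ly6d rose (4.50) and Lor fell (-1.04). The Lor change was -0.02 after normexp (adjusted p = 0.965), and the slide block gave -0.47 (adjusted p = 0.499). Ly6d was called with that block too (6.58). The squamous keratin genes Krt5, at 0.10, and Krt14, at 0.05, were not past the threshold and were named after their values were seen. The squamous sum was 10.4 to 13.9 in KO-marrow and 16.3 to 17.5 in WT-marrow AOM+DSS mice, against 2.13 to 6.08 in KO-marrow and 4.63 to 6.86 in WT-marrow untreated mice. Beside this higher sum, the median change of the 8 squamous markers was -0.66, with 1 called higher and 1 lower. That median was 0.14 with normexp and 1.10 with slide as a block. The part of these shifts in the changes of Cldn8, Cldn4, Cldn3 and Ocln was not tested.

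Other claudins and claudin-domain genes were mostly dim. Of 21 listed, 15 were on the array and 12 were tested. Averaged over marrows, 1 of the 12 was called higher and 0 lower, beside 7.55% and 13.5% of all genes. The median change was -0.23, but 0.06 with quantile normalization, 0.39 with normexp and 1.02 with slide as a block, settings that also moved the median of all genes above 0. The gene called was Cldn10, a claudin of ion-selective pores, at 1.23 ± 0.37 (SE, n = 6 against 6, limma adjusted p = 0.0342). With slide as a block the Cldn10 change was 1.93 and not called (adjusted p = 0.106). The Cldn10 call held in 12 of 20 settings, with changes from 1.00 to 1.93. In WT-marrow mice Cldn13, a rodent claudin, was lower by -3.77 (limma adjusted p = 0.0433), but with slide as a block its change was 1.98 (adjusted p = 0.262), so its direction depends on that choice.

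Among 29 tested genes of other tight junction proteins, 2 were called higher and 2 lower, beside 7.55% and 13.5% of all genes. The median was -0.06, but 0.09 with slide as a block. Cgnl1, which encodes paracingulin, a protein of the junction's cytoplasmic plaque, rose by 1.15 ± 0.18 (SE, n = 6 against 6, 2.22-fold, limma adjusted p = 0.00135). Every AOM+DSS mouse lay above every untreated mouse, as for 4.28% of all genes, while 3.9% were separated the other way (8.18% in either direction). Cgnl1 was called in KO-marrow mice (1.28, adjusted p = 0.0156) and in WT-marrow mice (1.02, adjusted p = 0.0265). With slide as a block it was 1.22 averaged over marrows (adjusted p = 0.0658), 1.32 in KO-marrow mice (adjusted p = 0.0414) and 1.13 in WT-marrow mice (adjusted p = 0.27). With the mean of its probes it was 1.04 in KO-marrow mice (adjusted p = 0.0555) and 0.09 in WT-marrow mice (adjusted p = 0.834). Its averaged change ran from 0.57 to 1.32 over 20 settings. Tjp3, which encodes the scaffold ZO-3, rose by 0.56 (adjusted p = 0.028).

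The 2 genes called lower in that list were Amotl1, an angiomotin-like protein (-2.05, adjusted p = 0.0211), and Cxadr, the coxsackievirus and adenovirus receptor of the junction (-0.93, adjusted p = 0.0218). With slide as a block none of Tjp3, Amotl1 and Cxadr was called (adjusted p from 0.354 for Amotl1 to 0.519 for Tjp3). The Amotl1 change was 0.73 after normexp background correction, so its direction depends on that choice. Amotl1 was dim, well above background on 2 of 6 AOM+DSS and 4 of 6 untreated arrays. It passed the filter on dim probes only through KO-marrow untreated mice, where its mean was highest, so its call is no independent support. In WT-marrow mice Cxadr (-1.46) and the polarity kinase gene Prkcz (-1.07) were among the genes called lower. The Prkcz call held in 7 of 20 settings. Neither was called with slide as a block, Prkcz at -0.33 (adjusted p = 0.728) and Cxadr at -1.15 (adjusted p = 0.388).

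Among 19 adherens junction and desmosome genes, 1 was called higher and 2 lower, beside 7.55% and 13.5% of all genes, with a median of -0.00. The desmosomal cadherin Dsc2 rose by 1.01 (adjusted p = 0.0368), the cornified envelope protein gene Evpl fell by 0.81 (adjusted p = 0.0272), and the adhesion gene Nectin3 fell by 0.54 (adjusted p = 0.0194). Cdh1, which encodes E-cadherin and was named after its value was seen, stood at -0.00 ± 0.25 (SE, n = 6 against 6, limma adjusted p = 0.995). None of Dsc2 (0.18), Evpl (-0.55) and Nectin3 (-0.23) was called with slide as a block. With the mean of its probes the Nectin3 change was -0.12 and not called (adjusted p = 0.647). The Dsc2 call held in 7 of 20 settings and was lost without any single array other than that of WT-marrow AOM+DSS mouse 3.

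Of 18 tested cytokines, proteases and a kinase known to act on junctions, 9 were called higher and 0 lower, beside 7.55% and 13.5% of all genes. The median was 0.83. On all arrays of the group, 18 of these genes were well above background in KO-marrow and 15 in WT-marrow AOM+DSS mice. In untreated mice 10 were so with KO marrow and 14 with WT marrow. Some thus passed the filter on dim probes only through AOM+DSS mice, and the count called higher depends in part on that filter. The genes called included the inflammatory cytokine Il1b (7.22, adjusted p = 3.02e-06), interferon gamma (Ifng, 3.64, adjusted p = 0.00272), Il6 (3.07, adjusted p = 0.00237) and Il22, a cytokine of lymphoid cells that acts on epithelium. Il22 was not well above background in any untreated mouse and was at least 3.53-fold higher in AOM+DSS mice (adjusted p = 0.00318). It passed the filter only through AOM+DSS mice, so its call is no independent support. With slide as a block 7 of the 18 were called higher, and with normexp 5, beside 975 and 1118 of all 23747 genes. Ifng was not called with slide as a block (4.36, adjusted p = 0.0504), nor Il6 with normexp (1.43, adjusted p = 0.0614).

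**Figure D4:**
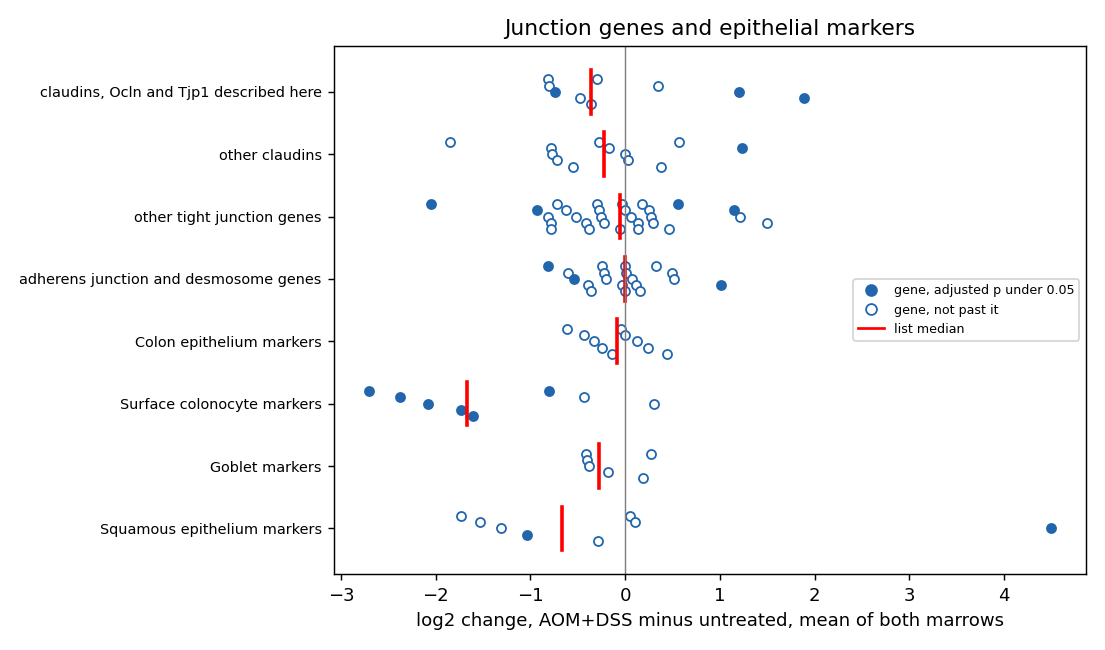
Log2 change with AOM+DSS, averaged over both marrow types, for each tested gene of 8 groups; filled points passed the threshold and red lines are medians. The junction groups have medians from -0.36 to -0.00, whereas the surface colonocyte markers have a median of -1.67.

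Among the 10 genes, the closest pair over the arrays was Cldn3 and Ocln (r = 0.748), and Cldn8 was closest to Cldn4 (r = 0.693). Cldn3 (4.42), Ocln (0.32) and Cldn23 (1.26) each had their lowest level on the dim array, which enters every r given for these genes. The correlation of Cldn8 with Cldn15 was -0.702. Among 14608 genes with a symbol, the level of Cldn8 was most like that of Mmp2, a gelatinase gene of stromal cells (r = 0.972), and of Hgf, a growth factor gene (r = 0.964). Cldn3 was most like Prrg2 (r = 0.966) and Cox6b1 (r = 0.964), Ocln most like Dcun1d1 (r = 0.968) and, over 10 arrays, Gyg (r = 0.963), and Cldn4 most like Frmd4b (r = 0.906) and Smcr8 (r = 0.897). Cldn7 was most like Uba7 (r = 0.937) and Gtse1 (r = 0.93), and Tjp1 most like Ly75 (r = 0.939) and Arhgef3 (r = 0.913). Over 11 arrays, Cldn15 was most like Bhlha9 (r = 0.955) and Pcsk4 (r = 0.945), and Cldn23 most like Sqstm1 (r = 0.898) and Tsc22d3 (r = 0.861). For Cldn2 the closest genes were Pecr, a peroxisomal reductase gene (r = 0.974), and Gstm5 (r = 0.952), and the dim array, where Cldn2 was lowest, enters both values. Where no number of arrays is given, the correlations are over 12 arrays. The arrays share slides and treatment groups, and the correlations are given as a description.

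The donor marrow was compared next, which addresses whether Muc1 in blood cells alters the junction genes of a wild-type epithelium. In AOM+DSS mice, 0 of the 9 genes were called between KO and WT marrow, and 0% of all genes were called either. At an unadjusted p under 0.05 there were 1 of the 9 genes and 231 of all genes. That gene was Cldn8, at 5.30 in KO-marrow against 4.49 in WT-marrow AOM+DSS mice (means, n = 3 each), a difference of 0.81 ± 0.34 (SE, 95% interval 0.08 to 1.54, limma adjusted p = 1). Cldn3 was higher in each KO-marrow mouse (6.22 to 6.38) than in each WT-marrow mouse (4.42 to 6.12), as for 2.03% of all genes, with 1.69% separated the other way (3.72% in either direction), and the difference was 0.78 ± 0.38 (SE, n = 3 against 3, limma adjusted p = 1).

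Both differences were larger on slide 2, which holds the dim array, than on slide 3. For Cldn8 the difference was 1.73 on slide 2, with 1 mouse on each side, and 0.35 on slide 3, with 2 on each side. For Cldn3 it was 1.80 on slide 2 and 0.27 on slide 3, and for Cldn2 it was 3.00 on slide 2 and -0.44 on slide 3. In a fit to slide 2 alone, 5 of the 9 genes passed the threshold (Cldn2, Cldn3, Cldn8, Ocln and Tjp1, adjusted p from 0.000892 to 0.0342), as did 4588 of all 23747 genes, but that fit takes its spread from 1 pair of untreated mice and assumes that the lone mice vary alike. Without the dim array the difference was 0.38 for Cldn8, 0.22 for Cldn3 and -0.37 for Cldn2.

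**Figure D5:**
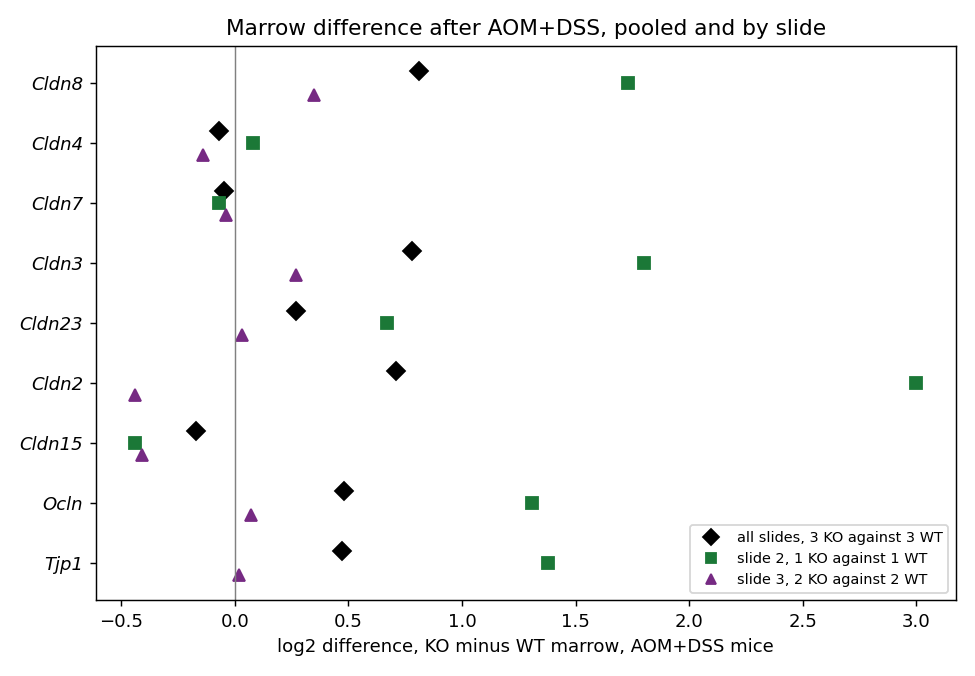
Log2 difference, KO minus WT marrow, in AOM+DSS mice over all slides (diamonds) and within slides 2 and 3; for Cldn15 and Cldn23 the spot left out leaves 1 KO-marrow mouse on slide 3. The slide 2 values of Cldn2 (3.00), Cldn3 (1.80) and Cldn8 (1.73) lie far to the right of their slide 3 values (-0.44, 0.27 and 0.35).

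In untreated mice, 0 of the 9 genes and 0% of all genes were called between KO and WT marrow, with 0 of the 9 and 2911 of all genes at an unadjusted p under 0.05. Without KO-marrow untreated mouse 1, 1666 of all genes were called (15 higher and 1651 lower) and still 0 of the 9. Cldn8 was higher in each KO-marrow untreated mouse (3.25 to 3.27) than in each WT-marrow untreated mouse (2.49 to 3.07), as for 6.17% of all genes, with 6.57% separated the other way (12.7% in either direction), and the difference was 0.50 ± 0.34 (SE, n = 3 against 3, 95% interval -0.23 to 1.23, limma adjusted p = 0.517). The Cldn2 difference was 1.10 ± 0.74 (SE, 95% interval -0.49 to 2.69, limma adjusted p = 0.51), and the Cldn4 difference was 0.71 ± 0.37 (SE, limma adjusted p = 0.421). Within slide 1, which sets 1 KO-marrow against 3 WT-marrow untreated mice, these differences were 0.51 for Cldn8, 0.60 for Cldn2 and 0.21 for Cldn4.

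Whether the AOM+DSS effect differed with the marrow was tested as an interaction, KO-marrow change minus WT-marrow change. It was called for 0 of the 9 genes and 0% of all genes, with 0 of the 9 and 829 of all genes at an unadjusted p under 0.05. The largest in size among the 9 was that of Cldn3, at 1.01 ± 0.54 (SE, 95% interval -0.16 to 2.18, limma adjusted p = 0.897). For Cldn4 it was -0.78 ± 0.52 (SE, 95% interval -1.91 to 0.35) and for Cldn8 0.31 ± 0.48 (SE, 95% interval -0.73 to 1.35). So the calls of Cldn3 and Cldn4 in WT-marrow mice and their absence in KO-marrow mice do not show a difference between the marrows.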

How the data were processed

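RNA from the colon mucosa of 12 mice was hybridised, 1 mouse per array, to 1-colour Agilent mouse arrays. The deposited intensity values (background-subtracted processed signals; the headers name Feature Extraction 10.7.3.1) were scaled here to each array's 75th percentile and put on the log2 scale. The deposited log2 group means of the authors' table served for comparison only. Control spots and outlier-flagged spots were left out, spots of a probe were averaged, and a probe was kept if well above background on all 3 arrays of a group. Of 41174 probes, 24375 matched a RefSeq symbol (GRCm38.p6) through their transcript identifier. The files hold no gene-name column. The brightest kept probe stood for each gene. limma 3.58.1 in R 4.3.3 fitted group means to 23747 genes (eBayes with trend, Benjamini-Hochberg adjustment), after tests on simulated data. Precision is limited by 3 arrays a group. Alternatives were quantile normalization, normexp (offset 50, on median signals, since the files hold no mean signal), other filters, mean of probes, array weights, slide and replicate blocks, single slides, leaving out each array, and the dimmer probe (added after seeing the data). Named were all 10 genes, at most 4 called genes per list and comparison, and the 2 most correlated genes. Members and lists were chosen with earlier results of these data known.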

Additional observations from a re-analysis of the deposited data

How the results depend on the processing

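The number of the 9 genes called for AOM+DSS averaged over both marrows was 3, was 0 with slide as a block and ranged from 2 to 5 when single arrays were left out, with 5 without WT-marrow AOM+DSS mouse 3. In WT-marrow mice it was 3, was 0 with normexp and 0 with slide as a block, and ranged from 0 to 4, with 0 without WT-marrow AOM+DSS mouse 1 and 1 without either of WT-marrow untreated mice 1 and 2. In KO-marrow mice it was 1 in every leave-one-out fit and 4 with array weights, which called 8478 of the 23747 genes there. Array weights also gave 3 between untreated KO and WT marrow, beside 11652 of all genes. limma's weight estimate stopped before it converged, with weights from 0.0416 to 8. Ocln lost its call without any of 7 arrays, and the Cldn3 call in WT-marrow mice held in 9 of 20 settings. Every called change kept its sign: Cldn4 averaged was called in 19 of 20 settings (0.74 to 1.35), Cldn8 averaged in 19 of 20 (1.50 to 2.24), Cldn4 in WT-marrow mice in 14 of 20 and Cldn8 there in 16 of 20. The sign turned for Amotl1 (0.73) and Arhgef2 (0.23) with normexp and for Cldn13 (1.98) with slide as a block, and the cause was not tested.

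Over all genes, averaged over marrows, 1794 were called higher and 3194 lower, against 3347 and 3071 with quantile normalization, 1118 and 1259 with normexp, 2562 and 6293 with array weights, and 975 and 497 with slide as a block. The total of 4988 ranged from 2786 to 8865 when single arrays were left out. In WT-marrow mice the total of 3279 ranged from 487 to 7607, and in KO-marrow mice that of 749 ranged from 251 to 1268. Between untreated KO and WT marrow it was 0 and ranged from 0 to 1666. The median change of all genes, -0.19, was 0.01 with quantile normalization, 0.31 with normexp and 0.46 with slide as a block. The dim array and the slides limit what can be said of 1-unit changes.

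Replicate numbers are shared between groups but mark nothing in the labels. The deviations of same-numbered mice from their group means correlated from -0.384 to 0.512 (median -0.117), above 0.1 in 7 of 18 pairs. For differently numbered mice of different groups they correlated from -0.489 to 0.462 (median 0.114), above 0.1 in 19 of 36 pairs. Of the 12 arrays, 9 correlated best with their own number, although same-numbered pairs had the lower median. With a replicate block, 4 of the 9 genes were called averaged over marrows, Cldn3 being added (-0.80, adjusted p = 0.0404), 3 in WT-marrow mice and 1 in KO-marrow mice, beside 4519, 2329 and 714 of all 23747 genes in these comparisons.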
